A study of Homo sapiens with 16 samples.

Results

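The change caused by TLT was compared between breast cancer cell lines that the compound killed at low doses and lines that needed higher doses. TLT (topsentinol L trisulfate) is a sterol with 3 sulfate groups purified from a marine sponge of the genus Topsentia. The low EC50 lines were HCC70, MDA-MB-231 and MDA-MB-157, in which 50 µM or less lowered viability to its midpoint after 72 h. The high EC50 lines were MDA-MB-468, HCC1143, HCC1395, MDA-MB-436 and HCC38, with an EC50 of 69 µM or more. MDA-MB-157 lay on the limit of the low class at 50 µM and MDA-MB-468 on that of the high class at 69 µM. For HCC38 only a lower bound of the EC50 is known. The EC50 came from a separate viability assay, so no RNA value was used to choose the lines. RNA of each of these 8 established lines was sequenced after 6 h with TLT at the EC75 or with DMSO vehicle, in medium with 5% serum, which gave 16 libraries, all used here: 6 of low and 10 of high EC50 lines. Throughout, values of the low EC50 lines are given in the order HCC70, MDA-MB-231, MDA-MB-157, and those of the high EC50 lines in the order MDA-MB-468, HCC1143, HCC1395, MDA-MB-436, HCC38. A change is log2(TLT + 1) minus log2(DMSO + 1) of the normalized signal in a line, and a difference is the mean change of the low EC50 lines minus that of the high EC50 lines.

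Each line had 1 library per treatment, so the lines are the replicates and p-values measure the spread between lines. The labels name the EC75 without a concentration. For protein arrays on the same lines a shared dose near the mean EC75 was used, and whether the RNA samples had it too is not stated. A shared dose was a larger multiple of the EC50 in the low EC50 lines. If each line had its own EC75 instead, the dose itself may differ with the class. In neither case can dose and EC50 class be told apart. HCC70, MDA-MB-468, HCC1143 and HCC1395 are basal-like lines, and MDA-MB-231, MDA-MB-157, MDA-MB-436 and HCC38 are claudin-low. Basal-like and claudin-low breast cancers mostly lack hormone receptors and HER2, and the claudin-low type has little of the claudins and E-cadherin that join epithelial cells. Sterols and cell stress are read by a few well-known programs. SREBP2 turns on cholesterol synthesis when membranes lack sterol, the kinase ERK is restrained by phosphatases and Sprouty proteins that it induces itself, and the integrated stress response slows translation and lets the factor ATF4 turn on genes of amino acid supply.

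The TLT libraries held an estimated 10.6 to 20.1 M reads and the DMSO libraries 12.2 to 18.8 M. The MDA-MB lines were run in lane 1 and the HCC lines in lane 2, with the TLT and DMSO library of a line in the same lane. Reads carry no strand, so overlapping genes cannot be told apart, and genes with near-identical copies share reads. Markers of other cell types were also summed. Of 8 blood cell markers 3 passed the filter of a mean signal of 10 (CD14, CD68 and HBA1, not PTPRC), of 5 endothelial markers 1 (KDR), of 7 fibroblast markers 7 and of 4 adipocyte markers 0, and 0 of those tested had an unadjusted p under 0.05 for the difference (0 after adjustment, limma). The blood cell sum was 1510 to 3538 in TLT and 1467 to 2141 in DMSO in the low EC50 lines, against 86.4 to 3427 in TLT and 35.4 to 2793 in DMSO in the high EC50 lines. Of the 3 tested blood cell markers 2 rose in the high EC50 lines (6.75% of all genes) and 0 in the low EC50 lines (5.49% of all genes). The 7 fibroblast markers were lower in TLT in MDA-MB-231 (median change -0.98) and higher in MDA-MB-157 (0.83) and HCC1143 (1.14), and their part in the results was not tested. The 8 breast markers were KRT8, KRT18, KRT19, KRT5, KRT17, EPCAM, CDH1 and VIM, the last a mesenchymal gene. Of these, 2 had a higher change in the low EC50 lines at an unadjusted p under 0.05 (25%, against 3.5% of all genes). They were the keratin KRT18 at 0.50 and the junction protein CDH1 (E-cadherin) at 1.75. All 8 differences, that of VIM included, were above 0, against 8445 of all 14544 genes. Their median was 0.44, against 0.07 over all genes. Without MDA-MB-231, 2 of the 8 were called higher, against 349 of all 14544 genes. CDH1 had signals of 11.9 in TLT and 0 in DMSO in MDA-MB-231 and of 9.26 and 1.16 in MDA-MB-157, so its value rests on signals near 0.

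The response to TLT was not shown to be larger in the low EC50 lines. The SD over genes of the log2 change, which measures how far a whole profile moved, was 0.848, 0.63 and 0.831 in the low EC50 lines, against 0.677, 0.637, 0.609, 0.707 and 0.597 in the high EC50 lines. HCC70 and MDA-MB-157 moved farthest of the 8 lines, while MDA-MB-231 moved about as far as the high EC50 lines. The means were 0.77 ± 0.12 (SD, n = 3) and 0.65 ± 0.05 (SD, n = 5), and an exact two-sided permutation test over lines gave p = 0.143, where the smallest p that 3 lines against 5 allow is 0.0357. Without MDA-MB-231 the difference of these means was 0.194, against 0.124 with all lines, at the smallest p that 2 lines against 5 allow (exact permutation p = 0.0952). Genes with a change below -1 on the log2 scale numbered 1340, 639 and 1269 in the low EC50 lines, against 627, 608, 492, 711 and 604 in the high EC50 lines (exact permutation p = 0.0714). Those with a change above 1 numbered 981, 663 and 1161 in the low EC50 lines, against 812, 760, 743, 933 and 582 in the high EC50 lines (exact permutation p = 0.286).

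**Figure D1:**
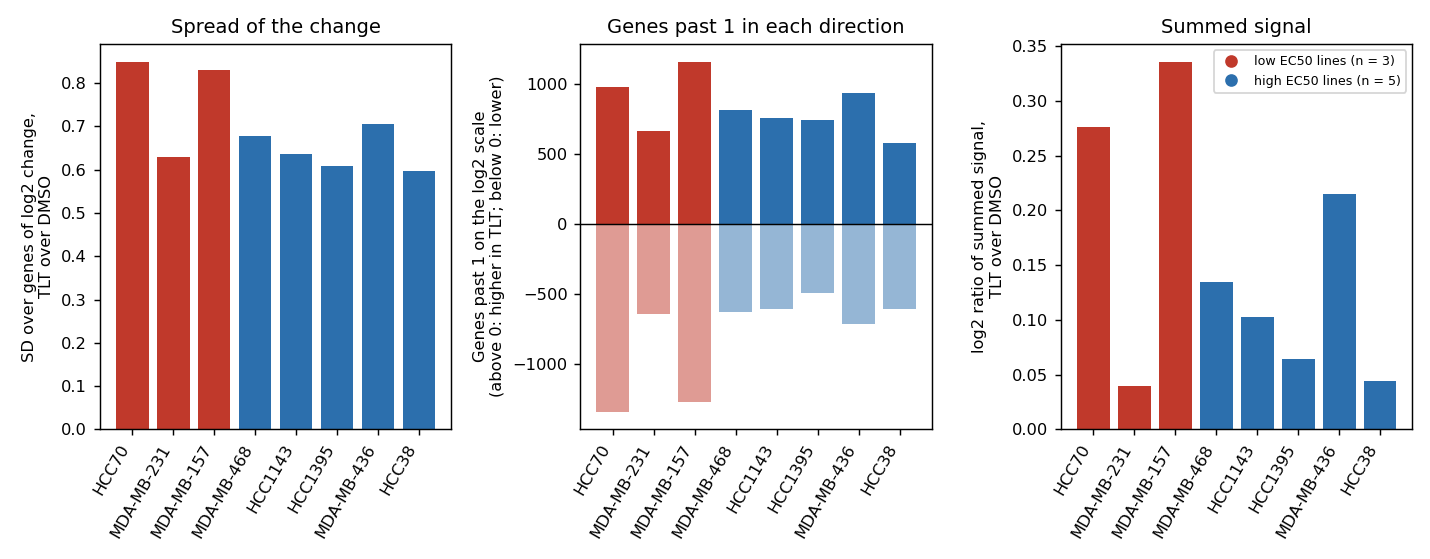
Bars give, for each line, the SD over 14544 genes of the log2 change (left), the number of genes past 1 on the log2 scale in each direction (middle) and the log2 ratio of summed signal, TLT over DMSO (right), with low EC50 lines in red and high EC50 lines in blue. HCC70 (0.848) and MDA-MB-157 (0.831) have the largest spread and MDA-MB-231 (0.63) lies among the high EC50 lines.

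The summed signal was higher in TLT than in DMSO in each of the 8 lines, by 21.1%, 2.82% and 26.2% in the low EC50 lines, against 9.78%, 7.41%, 4.58%, 16.1% and 3.15% in the high EC50 lines (exact permutation p = 0.286 for the log2 ratio). The difference of the mean log2 ratios was 0.105, and it was 0.193 without MDA-MB-231 and 0.0458 without MDA-MB-157. The log2 ratio of estimated reads, TLT over DMSO, was 0.64, -0.21 and 0.34 in the low EC50 lines, against -0.03, -0.27, -0.22, -0.06 and 0.09 in the high EC50 lines (exact permutation p = 0.143). HCC70 and MDA-MB-157 were also the lines with the deepest TLT library relative to DMSO, and the part of depth and scaling in their larger changes was not tested. The median difference over all genes was 0.07 with the deposited scaling, 0.03 with TMM scaling and -0.03 with equal summed signal, against which the differences below can be read. Across genes, the change of HCC70 correlated with that of MDA-MB-157 at r = 0.53 and with that of MDA-MB-231 at 0.301, and the last 2 correlated at 0.165. Among the high EC50 lines r ran from 0.295 to 0.53, and between the classes from 0.0566 to 0.531. These correlations are over 14544 genes of 1 pair of libraries per line and describe these libraries only.

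Within each class many genes passed the test. In the low EC50 lines, 798 of 14544 genes rose (5.49%) and 921 fell (6.33%) at an adjusted p under 0.05 (limma), and in the high EC50 lines 981 rose (6.75%) and 757 fell (5.2%). Of the genes that rose, 351 rose in both classes, 44% of the low and 35.8% of the high EC50 lists. Of those that fell, 276 fell in both, 30% and 36.5% of the lists. PHLDA1 alone fell in the low EC50 lines and rose in the high EC50 lines, and no gene did the opposite. The classes share the estimate of spread, and a gene called in 1 class and not in the other is not shown to differ.

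The difference itself was called for none of the 14544 genes (0%) at an adjusted p under 0.05 (limma), the smallest adjusted p being 0.0676 for LOC144438. The change was larger, or less negative, in the low EC50 lines for 509 genes (3.5%) when p was left unadjusted at 0.05, and smaller for 892 (6.13%). With TMM scaling these counts were 425 and 1005, and with equal summed signal 315 and 1047, so that genes with a lower change outnumbered those with a higher one under each of the 3 scalings. This did not hold without MDA-MB-231, where 2309 were higher and 1784 lower with p unadjusted, and the HCC lines alone gave 1702 and 1747. The 3 low EC50 lines lay above the 5 high EC50 lines without overlap for 292 genes (2.01%) and below them for 218 (1.5%). Leaving out MDA-MB-231 gave 1205 genes called, 349 higher and 856 lower, while leaving out any other single line gave none. Within the HCC lines, HCC70 against 3 high EC50 lines, 662 genes were called, 128 higher and 534 lower, with HCC70 assumed to vary like the others, and within the MDA-MB lines, 2 against 2, none was called by limma (114 and 157 genes in the 2 directions with p unadjusted). With HCC70 and MDA-MB-157 both left out, MDA-MB-231 alone stood against the high EC50 lines and 2 genes were called. The genes described below lead the ranking or belong to a list, and none of them is called for the difference in the comparison of all 8 lines.

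LOC144438, which the annotation used here does not describe, had the smallest p of all genes and a lower change in the low EC50 lines. LOC144438 had signals of 147, 532 and 352 in TLT and 436, 833 and 1099.97 in DMSO in the low EC50 lines. The high EC50 lines had 598, 1279.71, 914, 941 and 2698 in TLT and 575, 1000, 696, 732 and 1823 in DMSO. It was lower in TLT in each low EC50 line and higher in TLT in each high EC50 line. The changes were -1.56, -0.65 and -1.64 in the low EC50 lines, against 0.06, 0.36, 0.39, 0.36 and 0.57 in the high EC50 lines, a difference of -1.63 (SE 0.23, unadjusted p = 4.65e-06, limma), with an adjusted p of 0.0676 that ran from 0.000382 without MDA-MB-231 to 1 in the MDA-MB lines alone. It fell within the low EC50 lines by 1.28 (adjusted p = 0.00417, limma). The other 23 leading genes had adjusted p-values of 0.357 to 0.472 for the difference (limma), and without MDA-MB-231 each of the 24 except EN2, PLOD2 and SLFN11 was called.

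PHLDA1, a pleckstrin homology-like protein induced by growth factors (GRCh37 chr12:76419227-76425556, minus strand), had changes of -0.52, -0.20 and -1.30 in the low EC50 lines, against 0.86, 0.75, 0.39, 0.30 and 0.15 in the high EC50 lines, a difference of -1.16 (SE 0.24, unadjusted p = 0.000314, limma). PHLDA1 had signals of 791, 3876 and 1695 in TLT and 1135, 4443 and 4169 in DMSO in the low EC50 lines. Among the high EC50 lines they were 889.83, 2289, 2696, 2265 and 144 in TLT and 489, 1362, 2056, 1846 and 130.03 in DMSO. It was lower in TLT in 3 of 3 low EC50 lines and higher in 5 of 5 high EC50 lines, with class changes of -0.67 (adjusted p = 0.0386, limma) and 0.49 (adjusted p = 0.0469, limma). CCNT1, the cyclin T1 partner of CDK9 that releases paused RNA polymerase (GRCh37 chr12:49082241-49110781, minus strand), had changes of -1.09, -0.37 and -1.49 in the low EC50 lines, against -0.19, 0.36, 0.57, 0.08 and 0.58 in the high EC50 lines. The difference was -1.26 (SE 0.27, unadjusted p = 0.000372, limma), and it fell in the low EC50 lines by 0.98 (adjusted p = 0.016, limma). MTHFD2, a mitochondrial enzyme of folate metabolism, had changes of -0.37, 0.05 and -0.76 in the low EC50 lines, against 0.18 to 0.55 in the high EC50 lines, and rose in the high EC50 lines by 0.37 (adjusted p = 0.0307, limma). In MDA-MB-231 PHLDA1, CCNT1 and MTHFD2 were each the nearest of the 3 low EC50 lines to the high EC50 lines.

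WEE1, the kinase that holds CDK1 inactive (GRCh37 chr11:9595217-9615004, plus strand), had changes of -1.07, -0.01 and -1.26 in the low EC50 lines, against 0.20, 0.11, 0.25, 0.50 and 0.30 in the high EC50 lines. C15orf42, also named TICRR, which helps to start DNA replication, had changes of -1.11, -0.31 and -1.51 in the low EC50 lines, against 0.0049 to 0.33 in the high EC50 lines, and NEIL3, a glycosylase of DNA repair, -1.60, -0.61 and -1.15 in the low EC50 lines, against -0.26 to -0.02 in the high EC50 lines. In the low EC50 lines WEE1 fell by 0.78, C15orf42 by 0.98 and NEIL3 by 1.12 (adjusted p = 0.0246, 0.00967 and 0.0066, limma). None of these 3 passed in the high EC50 lines, with changes of 0.27, 0.18 and -0.13. In MDA-MB-231 WEE1 lay at -0.01, just below the lowest high EC50 line.

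**Figure D2:**
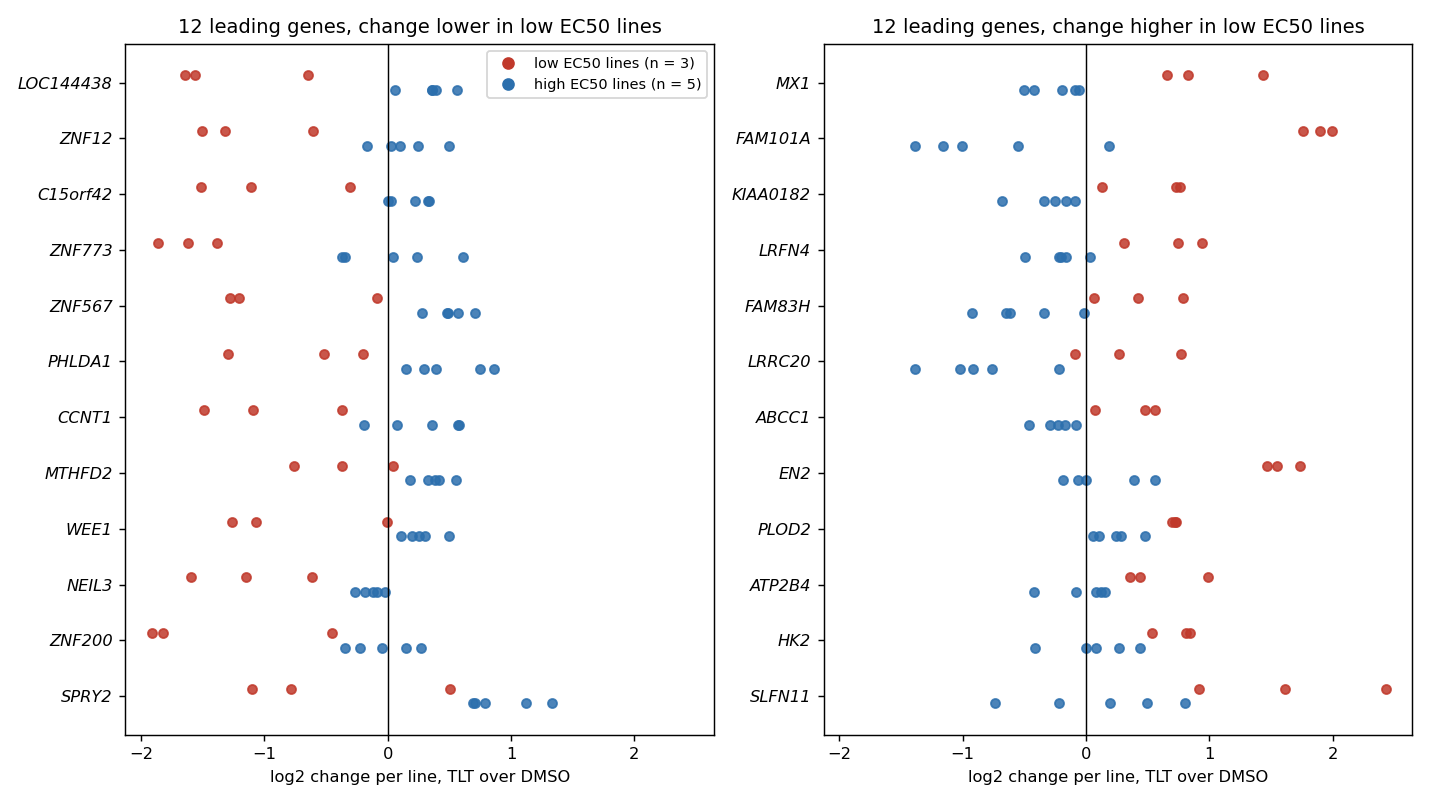
Each point is the log2 change, TLT over DMSO, of 1 line, for the 12 genes that lead the ranking with a lower change (left) and the 12 with a higher change (right) in the low EC50 lines (red, 3 lines) than in the high EC50 lines (blue, 5 lines). The red and blue points of a gene do not overlap, since the ranking required it, and none of the 24 differences passed the adjusted threshold. FAM101A was listed at 0 in DMSO in HCC70 and MDA-MB-231.

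MX1, an antiviral GTPase induced by interferon (GRCh37 chr21:42791947-42841998, plus strand), had the smallest p among the leading genes with a higher change. MX1 had signals of 925, 215 and 1312 in TLT and 585, 121 and 485 in DMSO in the low EC50 lines. The high EC50 lines had 472, 103, 485, 224 and 5.71 in TLT and 502, 147, 504, 256 and 7.98 in DMSO. It was higher in TLT in each low EC50 line and lower in each high EC50 line. The changes were 0.66, 0.83 and 1.43 in the low EC50 lines, against -0.09, -0.50, -0.05, -0.19 and -0.42 in the high EC50 lines, a difference of 1.23 (SE 0.25, unadjusted p = 0.000255, limma), and within the low EC50 lines MX1 rose by 0.97 (adjusted p = 0.0131, limma). The HCC38 value rests on signals under 10.

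PLOD2, a lysyl hydroxylase of collagen (GRCh37 chr3:145752926-145881512, minus strand), had nearly the same change in each low EC50 line. PLOD2 had signals of 7723, 4174 and 10230.30 in TLT and 4668, 2524 and 6296 in DMSO in the low EC50 lines. Among the high EC50 lines they were 2155, 2727, 4095, 469 and 1643 in TLT and 2075, 2238, 3451, 336 and 1529.57 in DMSO. Its changes were 0.73, 0.73 and 0.70 in the low EC50 lines, against 0.05, 0.29, 0.25, 0.48 and 0.10 in the high EC50 lines, with class changes of 0.72 (adjusted p = 0.00514, limma) and 0.23 (adjusted p = 0.0772, limma). EN2, a homeobox factor, had changes of 1.73, 1.47 and 1.55 in the low EC50 lines, against -0.19 to 0.56 in the high EC50 lines, and rose in the low EC50 lines by 1.58 (adjusted p = 0.01, limma). Its signal was under 10 in 3 high EC50 lines and 5.84 in HCC70 with DMSO. SLFN11, known for its part in the response to DNA damage, had changes of 0.91, 1.62 and 2.43 in the low EC50 lines, against -0.74 to 0.80 in the high EC50 lines, which places MDA-MB-157 highest. FAM101A, now named RFLNA, which binds the actin linker filamin, was listed at 0 in DMSO in HCC70 and MDA-MB-231 and had signals of 2.72 and 2.98 there in TLT. In MDA-MB-157 its signal was 1642 in TLT and 486 in DMSO, and in the high EC50 lines it was 16.5 or less. Its fitted difference of 2.66 followed the pseudocount, being 5.68 with 0.1 and 1.05 with 10.

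The remaining leaders with a higher change were ATP2B4, a calcium pump of the plasma membrane, ABCC1, an efflux pump of drugs and conjugates, FAM83H, which organizes keratins, the adhesion protein gene LRFN4, KIAA0182 (now GSE1) and LRRC20. ABCC1 had changes of 0.48, 0.07 and 0.56 in the low EC50 lines, against -0.46 to -0.08 in the high EC50 lines, and neither class passed the test for it. FAM83H fell in the high EC50 lines by 0.51 and LRRC20 by 0.86 (adjusted p = 0.0315 and 0.00939, limma), and neither passed in the low EC50 lines. For these 2 genes the larger of the class changes was thus that of the high EC50 lines. ATP2B4, LRFN4 and KIAA0182 rose in the low EC50 lines by 0.59, 0.67 and 0.54 (adjusted p = 0.0216, 0.023 and 0.0384, limma).

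**Figure D3:**
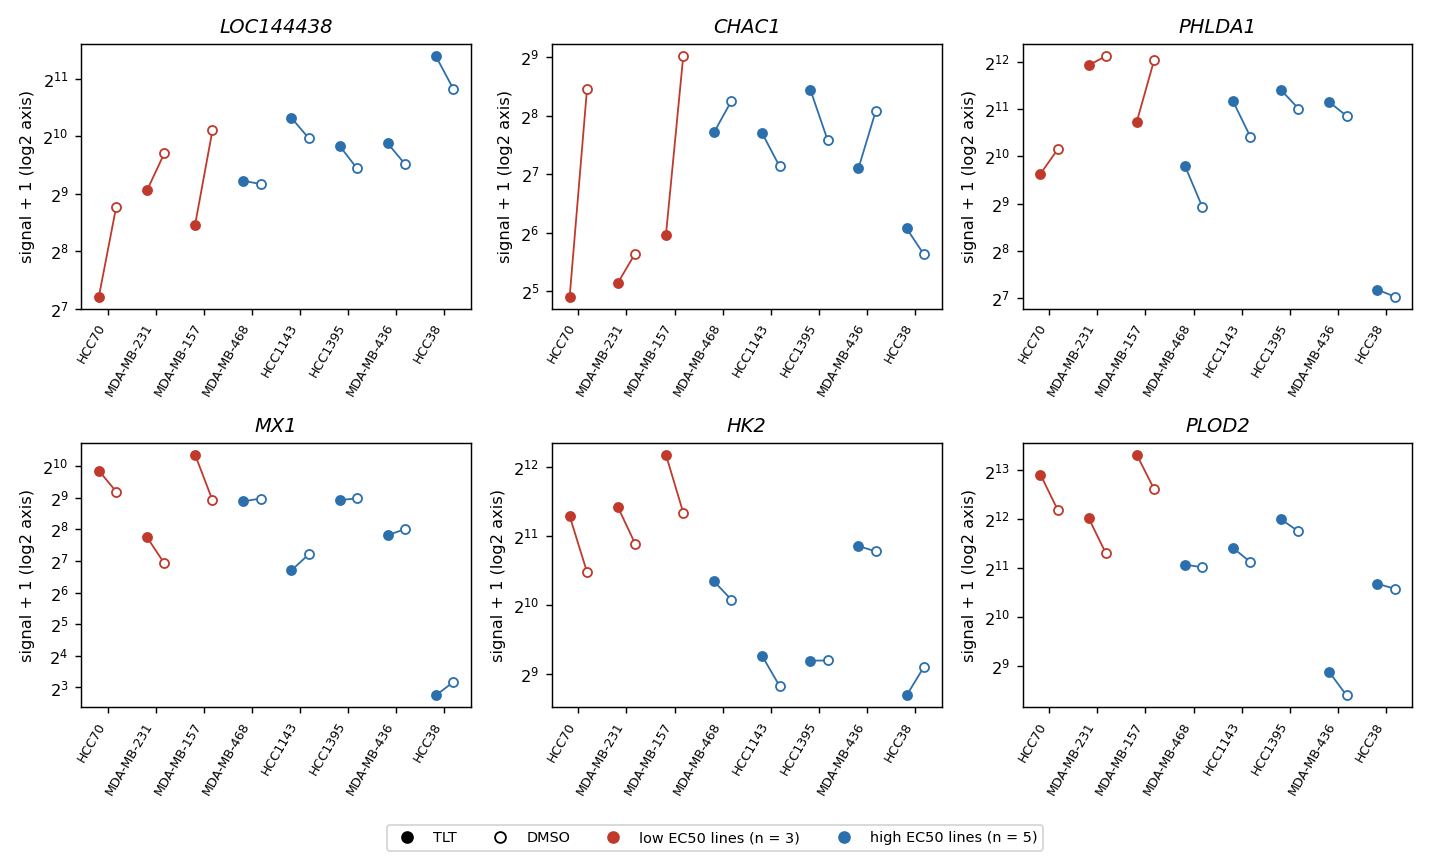
Normalized signal plus 1 on a log2 axis in every library, with TLT (filled) left of DMSO (open) for each line, low EC50 lines in red and high EC50 lines in blue. LOC144438 and PHLDA1 go down with TLT in the 3 low EC50 lines and up in the 5 high EC50 lines, and MX1 does the reverse, while the levels themselves differ widely between lines.

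Genes of the integrated stress response had a lower change in the low EC50 lines. Of 19 genes listed and tested, 11 had a lower change at an unadjusted p under 0.05 (57.9%, against 6.13% of all genes) and none a higher one, and 6 did not overlap between the classes (against 1.5% of all genes). Within the low EC50 lines 7 fell and 1 rose (6.33% and 5.49% of all genes), and within the high EC50 lines 3 rose and none fell (6.75% and 5.2% of all genes). The list median of the change was -0.86, -0.10 and -0.36 in the low EC50 lines, against 0.15, 0.34, 0.32, -0.03 and -0.05 in the high EC50 lines. HCC70 had the lowest median and MDA-MB-231 lay closest to the high EC50 lines. The 11 became 6 without HCC70 or with the EC50 rank, 3 in the MDA-MB lines alone, 13 in the HCC lines alone and 0 in the claudin-low lines alone. Without MDA-MB-231, 8 of the 19 were called lower after adjustment, against 856 of all 14544 genes.

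CHAC1, which degrades glutathione and is a target of ATF4 (GRCh37 chr15:41245160-41248710, plus strand), had the largest difference of the list. CHAC1 had signals of 29, 34.3 and 61.3 in TLT and 349, 49 and 517 in DMSO in the low EC50 lines. The high EC50 lines had 209, 206, 347, 136 and 66.3 in TLT and 303, 139, 190.11, 269 and 48.5 in DMSO. It was far lower in TLT in HCC70 and MDA-MB-157, low in both libraries of MDA-MB-231, and higher or lower in TLT among the high EC50 lines. The changes were -3.54, -0.50 and -3.05 in the low EC50 lines, against -0.53, 0.56, 0.86, -0.98 and 0.44 in the high EC50 lines, a difference of -2.44 (SE 0.64, unadjusted p = 0.00259, limma), with a class change of -2.37 (adjusted p = 0.018, limma) in the low EC50 lines. MDA-MB-468 and MDA-MB-436 of the high EC50 class overlapped MDA-MB-231.

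PSAT1, an enzyme of serine synthesis, and DDIT4, an inhibitor of mTORC1, were the 2 members of smallest p without overlap. PSAT1 had changes of -0.60, -0.13 and -0.80 in the low EC50 lines, against 0.34, 0.15, 0.20, 0.02 and -0.05 in the high EC50 lines, a difference of -0.64 (SE 0.16, unadjusted p = 0.0013, limma). DDIT4 had changes of -0.95, -0.34 and -0.36 in the low EC50 lines, against 0.40, 0.44, 0.32, -0.24 and 0.32 in the high EC50 lines, a difference of -0.80 (SE 0.20, unadjusted p = 0.00133, limma). Each was lower in TLT in 3 of 3 low EC50 lines. ASNS, asparagine synthetase, had changes of -1.54, -0.30 and -0.83 in the low EC50 lines, against -0.51 to 0.18 in the high EC50 lines, and DDIT3, which encodes the stress factor CHOP, -2.72, -0.55 and -1.32 in the low EC50 lines, against -0.84 to -0.33 in the high EC50 lines. In the low EC50 lines PSAT1, DDIT4, ASNS, DDIT3, CTH, an enzyme of cysteine synthesis, and SESN2, which slows mTORC1 when amino acids are short, fell with CHAC1 (adjusted p = 0.0129 to 0.049, limma). SESN2 had changes of -2.17, 0.12 and -1.02 in the low EC50 lines, against 0.73, 0.47, 0.48, 0.10 and 0.49 in the high EC50 lines, so that MDA-MB-231 lay with the high EC50 lines. ATF4 itself rose in the low EC50 lines by 0.58 (adjusted p = 0.00737, limma) and in the high EC50 lines by 0.72 (adjusted p = 0.000277, limma), and PPP1R15A, the phosphatase subunit that ends the response, rose in the high EC50 lines by 1.06 (adjusted p = 0.046, limma). For both the difference had an unadjusted p above 0.05. Among the remaining members, TRIB3, a pseudokinase that ATF4 induces, had changes of -1.10, -0.27 and -0.68 in the low EC50 lines, against -0.62 to 0.67 in the high EC50 lines, and the serine enzyme genes PHGDH and PSPH had differences of -0.35 and -0.37.

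The sites that ATF4 binds with C/EBP partners read TGATGNAA. This motif, searched on both strands, was in 4 of 24 promoters of the list (16.7%), against 1270 of 35116 promoters in the RefSeq table (3.62%). The motif was picked after the counts above were known. The list was made of known ATF4 targets, so an excess of the motif can follow from that choice whatever TLT did. Members with and without a lower change were not compared. The promoters of CHAC1 and ASNS, 250 bases before to 50 after the start, are shown because both genes fell in the low EC50 lines and both hold the motif, which is in capitals. They are CHAC1 (chr15:40953221-40953520, plus strand) and ASNS (chr7:97872359-97872658, minus strand) in GRCh38.p14.
CHAC1: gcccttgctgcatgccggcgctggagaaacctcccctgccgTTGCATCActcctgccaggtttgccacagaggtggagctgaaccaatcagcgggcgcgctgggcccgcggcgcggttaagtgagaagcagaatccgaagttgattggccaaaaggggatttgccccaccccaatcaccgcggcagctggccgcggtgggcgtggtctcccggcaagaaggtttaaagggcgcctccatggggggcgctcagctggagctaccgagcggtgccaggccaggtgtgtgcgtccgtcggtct
ASNS: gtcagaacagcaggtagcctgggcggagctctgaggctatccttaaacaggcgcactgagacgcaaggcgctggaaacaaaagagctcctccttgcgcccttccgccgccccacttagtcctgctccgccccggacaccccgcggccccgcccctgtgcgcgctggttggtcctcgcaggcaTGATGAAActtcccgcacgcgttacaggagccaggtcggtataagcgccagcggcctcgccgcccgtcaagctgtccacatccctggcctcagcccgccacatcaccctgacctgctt
In CHAC1 the match lies on the opposite strand and begins 209 bases before the start, and in ASNS it lies on the gene's strand and begins 68 bases before it. The match is a description of the letters and not a measurement of binding. The AP-1 motif TGAGTCA was in 3 of the 24 promoters (12.5%, against 4.95% of all) and the CRE motif TGACGTCA in 1 (4.17%, against 1.85%).

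**Figure D4:**
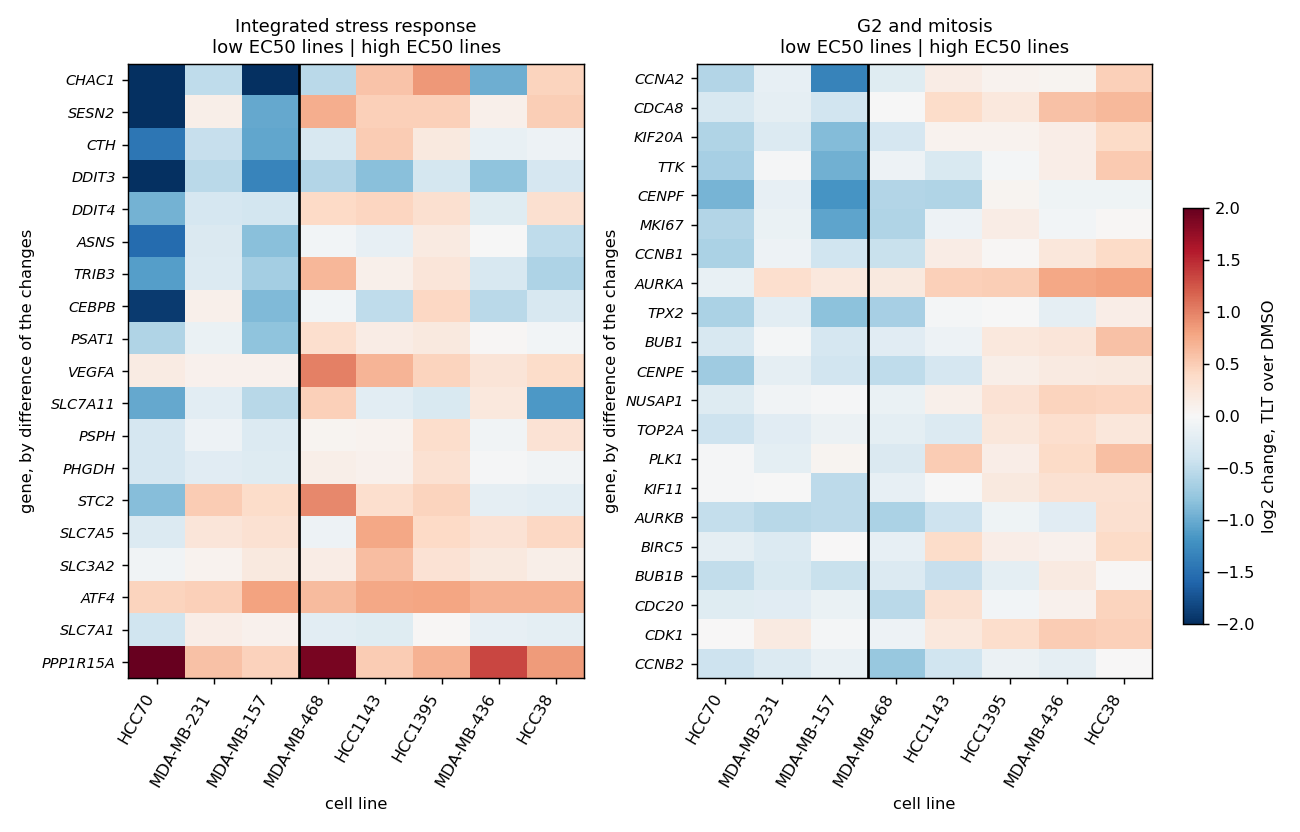
The log2 change, TLT over DMSO, of every tested member of the integrated stress response list (19 genes, left) and of the G2 and mitosis list (21 genes, right) is shown by color in each line, with the low EC50 lines left of the black line and the color scale ending at 2 in each direction. The blue cells concentrate in HCC70 and MDA-MB-157, with paler ones in MDA-MB-231 and, for the G2 and mitosis genes, in MDA-MB-468.

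Genes of G2 and mitosis also had a lower change in the low EC50 lines. Of 21 genes, 10 had a lower change at an unadjusted p under 0.05 (47.6%, against 6.13% of all genes) and none a higher one. The difference was below 0 for 20 of 21, against 6099 of all 14544 genes. Within the low EC50 lines 7 of 21 fell (6.33% of all genes), CENPF, KIF20A, CCNA2, TPX2, MKI67, AURKB and BUB1B. Within the high EC50 lines 2 of 21 rose (6.75% of all genes), AURKA and CDCA8. The list median was -0.42, -0.17 and -0.38 in the low EC50 lines, against -0.28, -0.01, 0.12, 0.18 and 0.38 in the high EC50 lines. MDA-MB-468 therefore lay among the low EC50 lines for this list, and HCC38 lay highest. The count of 10 became 19 without MDA-MB-468, 20 with the EC50 rank in place of the class, 15 with equal summed signal, 6 without HCC1395, 5 with a term for the line series, which is also the lane, 4 without HCC38, without MDA-MB-436 or in the claudin-low lines alone, 3 without HCC70 or with limma without trend, and 0 in the MDA-MB lines alone. Without MDA-MB-231, 6 of the 21 were called lower after adjustment, against 856 of all 14544 genes.

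CDCA8, a subunit of the chromosomal passenger complex (GRCh37 chr1:38158153-38175391, plus strand), was the single member without overlap, with changes of -0.32, -0.18 and -0.38 in the low EC50 lines, against -0.004, 0.36, 0.21, 0.59 and 0.64 in the high EC50 lines and a difference of -0.65 (SE 0.16, unadjusted p = 0.0012, limma). KIF20A, a kinesin of cytokinesis, had changes of -0.61, -0.27 and -0.87 in the low EC50 lines, against -0.33, 0.06, 0.07, 0.13 and 0.38 in the high EC50 lines, and CCNA2, cyclin A2, -0.58, -0.16 and -1.33 in the low EC50 lines, against -0.24, 0.14, 0.07, 0.05 and 0.47 in the high EC50 lines. MKI67, the marker of dividing cells, had changes of -0.58, -0.13 and -1.05 in the low EC50 lines, against -0.60, -0.10, 0.15, -0.05 and 0.03 in the high EC50 lines, and fell in the low EC50 lines by 0.59 (adjusted p = 0.0357, limma). CENPF, a kinetochore protein, fell there by 0.76 (adjusted p = 0.0214, limma), with changes of -0.59 in MDA-MB-468 and -0.60 in HCC1143 as well. The spindle kinase gene AURKA rose in the high EC50 lines by 0.55 (adjusted p = 0.00501, limma), and CCNB1, cyclin B1, had changes of -0.63, -0.10 and -0.40 in the low EC50 lines, against -0.45 to 0.38 in the high EC50 lines. In bulk RNA, fewer cells in a phase of the cycle and less RNA per cell cannot be told apart.

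Promoters of G2 and mitosis genes often hold the cell cycle homology region, TTTGAA, near a CCAAT box. TTTGAA on either strand was in 12 of 19 promoters of the list (63.2%, against 15.2% of 35116 promoters), and CCAAT in 17 (89.5%, against 34.6%). TTTGAA was picked with the counts above known. As the list was made of known G2 and mitosis genes, these excesses can follow from that choice whatever TLT did. The promoters of CDCA8 and MKI67 are shown with TTTGAA in capitals, as CDCA8 (chr1:37692266-37692565, plus strand) and MKI67 (chr10:128126374-128126673, minus strand) in GRCh38.p14.
CDCA8: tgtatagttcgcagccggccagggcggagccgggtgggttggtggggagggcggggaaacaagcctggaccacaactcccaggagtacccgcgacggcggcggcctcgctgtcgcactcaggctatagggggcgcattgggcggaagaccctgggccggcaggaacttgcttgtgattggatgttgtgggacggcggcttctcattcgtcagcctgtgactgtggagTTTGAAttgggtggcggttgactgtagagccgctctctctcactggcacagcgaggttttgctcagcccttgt
MKI67: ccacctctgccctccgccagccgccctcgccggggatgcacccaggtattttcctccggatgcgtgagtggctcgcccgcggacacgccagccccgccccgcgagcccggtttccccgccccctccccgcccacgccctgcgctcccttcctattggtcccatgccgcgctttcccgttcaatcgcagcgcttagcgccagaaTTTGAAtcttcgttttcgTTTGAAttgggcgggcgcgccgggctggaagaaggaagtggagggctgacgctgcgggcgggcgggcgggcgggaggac
The match in CDCA8 begins 23 bases before the start, and MKI67 has 2 matches, beginning 47 and 29 bases before it. Of the other motifs, the E-box CACGTG was in 4 of 19 (21.1%, against 7.26%), TGACGTCA in 2 (10.5%, against 1.85%) and TATAAA in 2 (10.5%, against 11.5%). The GC box GGGCGG was in 15 of 19 (78.9%, against 45% of all promoters), but also in 19 of 24 of the stress response list (79.2%) and in 13 of 16 of the ERK feedback list (81.2%).

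Among 24 DNA replication genes 5 had a lower and 2 a higher change at an unadjusted p under 0.05 (20.8% and 8.33%, against 6.13% and 3.5% of all genes). The list as a whole did not lean lower. Its median difference was 0.10, against 0.07 over all genes, with 14 differences above 0 and 10 below (8445 and 6099 of all 14544 genes). Within the low EC50 lines 4 fell and 0 rose (6.33% and 5.49% of all genes). Within the high EC50 lines 6 fell and 1 rose (5.2% and 6.75% of all genes). FEN1, the flap nuclease, had changes of -0.42, -0.17 and -0.48 in the low EC50 lines, against -0.08 to 0.38 in the high EC50 lines, and GINS3, a subunit of the replicative helicase, -0.39, -0.44 and -0.68 in the low EC50 lines, against -0.10 to 0.17 in the high EC50 lines. CDT1 and CDC6, which load the helicase, and MCM10 fell in the low EC50 lines by 0.72, 0.74 and 0.90 (adjusted p = 0.0265, 0.0207 and 0.0094, limma). POLA2, of DNA polymerase alpha, and MCM5 differed in the other direction: they fell in the high EC50 lines by 0.87 and 0.51 (adjusted p = 0.00116 and 0.00939, limma) and passed in neither direction in the low EC50 lines. The count of 5 became 3 without MDA-MB-157 and 0 in the MDA-MB lines alone.

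Some of the genes that ERK induces to restrain itself rose in the high EC50 lines. Of 16 dual-specificity phosphatases, Sprouty and SPRED genes and ETV factors, 6 rose in the high EC50 lines and none fell (6.75% and 5.2% of all genes), and in the low EC50 lines none passed in either direction (5.49% and 6.33% of all genes rose and fell there). The difference was lower at an unadjusted p under 0.05 for 7 of 16 (43.8%, against 6.13% of all genes), with a median of -0.72. The list median was 0.12, 0.46 and -0.51 in the low EC50 lines, against 1.12, 0.51, 0.66, 0.47 and 0.62 in the high EC50 lines. All 16 genes were higher in TLT in MDA-MB-231, against 6583 of all 14544 genes. In MDA-MB-157 12 of 16 were lower, against 5528 of all 14544 genes. For this list the low EC50 lines thus differed among themselves. The 7 became 2 without MDA-MB-157, 3 with the EC50 rank or in the claudin-low lines alone and 4 in the MDA-MB lines alone. Without MDA-MB-231, 4 of the 16 were called lower after adjustment, against 856 of all 14544 genes.

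SPRY2, a Sprouty inhibitor of receptor tyrosine kinase signaling, and DUSP5, a nuclear ERK phosphatase, were the members without overlap. SPRY2 had changes of -0.78, 0.50 and -1.10 in the low EC50 lines, against 1.12, 0.79, 1.33, 0.69 and 0.70 in the high EC50 lines, a difference of -1.39 (SE 0.33, unadjusted p = 0.000893, limma). DUSP5 had changes of 0.21, 0.34 and -0.93 in the low EC50 lines, against 1.24, 0.54, 1.07, 0.96 and 1.39 in the high EC50 lines, a difference of -1.17 (SE 0.29, unadjusted p = 0.00131, limma). Within the high EC50 lines SPRY2 rose by 0.93 (adjusted p = 0.0112, limma) and DUSP5 by 1.04 (adjusted p = 0.00357, limma). SPRY4 rose there by 2.01 (adjusted p = 0.00965, limma), with changes of 1.09, 0.53 and -0.80 in the low EC50 lines, against 3.45, 1.73, 1.18, 0.89 and 2.80 in the high EC50 lines. DUSP6, the phosphatase most tied to ERK output, had changes of -0.28, 0.24 and -1.70 in the low EC50 lines, against 2.92, 0.49, 0.30, 0.20 and 1.45 in the high EC50 lines and passed in neither class. Of the immediate early genes, 11 of 25 rose in the low EC50 lines (5.49% of all genes) and 15 in the high EC50 lines (6.75% of all genes), and none fell in either. The difference was higher for 1 and lower for 3 at an unadjusted p under 0.05 (4% and 12%, against 3.5% and 6.13% of all genes). FOS, a subunit of AP-1, rose by 2.53 (adjusted p = 0.011, limma) in the low EC50 lines and by 1.80 (adjusted p = 0.00939, limma) in the high EC50 lines. JUND, another subunit, rose in the high EC50 lines by 0.96 (adjusted p = 0.00753, limma) and had changes of -0.23, 0.71 and -0.24 in the low EC50 lines. MYC, the growth factor-induced transcription factor, had changes of -0.85, -0.10 and -0.73 in the low EC50 lines, against -0.29 to 0.61 in the high EC50 lines and passed in neither class. NR4A2, an orphan nuclear receptor, was the 1 member with a higher change, and rose by 2.14 (adjusted p = 0.00737, limma) in the low and by 1.11 (adjusted p = 0.0212, limma) in the high EC50 lines.

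Zinc finger genes with ZNF names had lower changes in the low EC50 lines, a list examined because earlier results of these data had pointed to it. Of 489 tested, 138 had a lower and 4 a higher change at an unadjusted p under 0.05 (28.2% and 0.818%, against 6.13% and 3.5% of all genes). In 29 of the 489 the low EC50 lines lay below the high EC50 lines without overlap (against 1.5% of all genes). Within the low EC50 lines 146 fell and 2 rose (6.33% and 5.49% of all genes). Within the high EC50 lines 37 fell and 12 rose (5.2% and 6.75% of all genes). The median change was -0.95, -0.09 and -0.84 in the low EC50 lines, against -0.36, -0.07, -0.02, -0.29 and 0.06 in the high EC50 lines. HCC70 and MDA-MB-157 stood apart, and MDA-MB-231 lay with the high EC50 lines. The 138 became 54 without HCC70, 62 without MDA-MB-157 and 246 without MDA-MB-231, 254 in the HCC lines alone, 22 in the claudin-low lines alone and 8 in the MDA-MB lines alone. Without MDA-MB-231, 153 were called lower and 2 higher after adjustment, against 856 and 349 of all 14544 genes. The unadjusted count of genes with a lower change over all genes rose there too, from 892 to 1784. These genes share sequence, so reads can be split among them.

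ZNF12 (GRCh37 chr7:6728064-6746578, minus strand) had changes of -1.32, -0.61 and -1.51 in the low EC50 lines, against 0.50, -0.16, 0.24, 0.03 and 0.10 in the high EC50 lines, a difference of -1.28 (SE 0.22, unadjusted p = 4.91e-05, limma). ZNF773 had changes of -1.62, -1.86 and -1.38 in the low EC50 lines, against -0.34, 0.61, 0.04, -0.37 and 0.24 in the high EC50 lines, with MDA-MB-231 the lowest of the 8. ZNF567 and ZNF200 both had a difference of -1.36. ZNF proteins bind DNA through zinc fingers, and those with a KRAB domain mostly silence transposable elements and genes. ZNF genes made up 138 of the 892 genes with a lower change (15.5%) and 4 of the 509 with a higher one (0.786%), against 3.36% of all genes. Chromosome 19, which carries many of them, held 12.1% of the genes with a lower change that have a GRCh37 position, 4.34% of those with a higher change and 7.25% of all. The genes with a lower change had a median genomic span of 28.2 kb, those with a higher change 52.2 kb and all genes 33.4 kb, and their median signals were 595, 425 and 458.

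**Figure D5:**
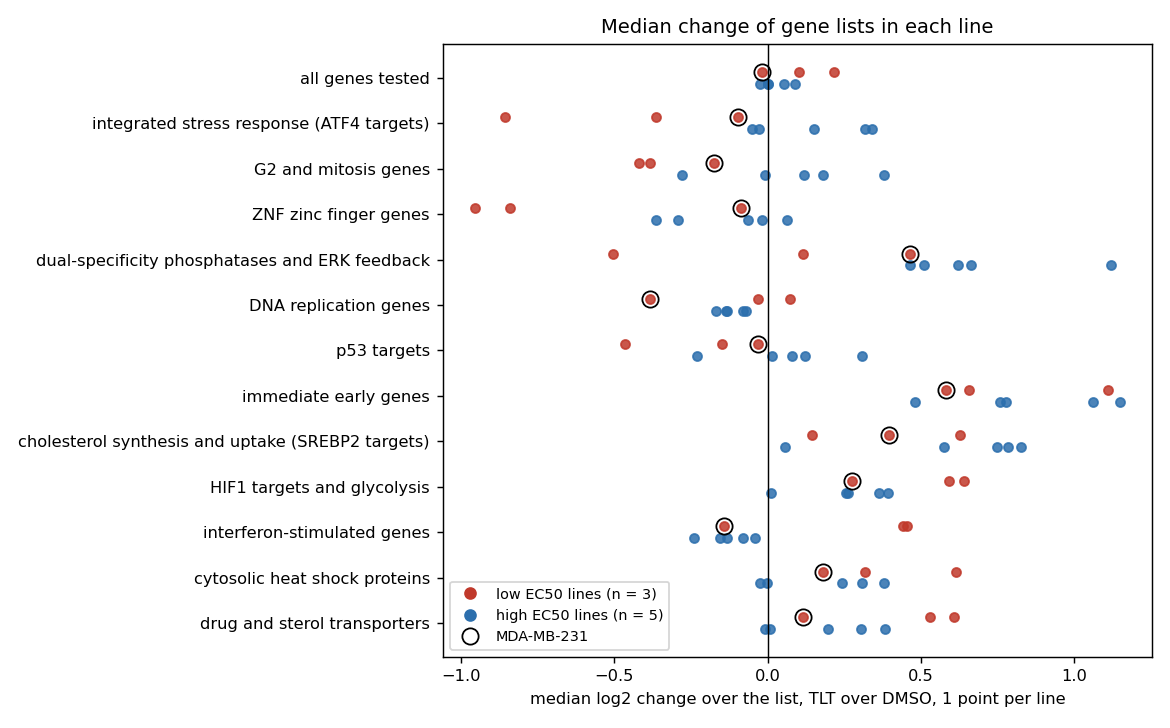
Each point is the median log2 change, TLT over DMSO, of a gene list in 1 line, with low EC50 lines in red (MDA-MB-231 circled) and high EC50 lines in blue. The 3 red points lie left of the 5 blue ones for the integrated stress response, while for HIF1 targets HCC70 (0.59) and MDA-MB-157 (0.64) lie right of the blue points and MDA-MB-231 (0.28) lies among them.

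Targets of the hypoxia factor HIF1 and glycolytic genes included many that rose in each class. Of 28 genes 16 rose in the low EC50 lines (5.49% of all genes) and 9 in the high EC50 lines (6.75% of all genes), and none fell in either. The difference was higher for 6 and lower for 1 at an unadjusted p under 0.05 (21.4% and 3.57%, against 3.5% and 6.13% of all genes), with a median of 0.22 against 0.07 over all genes. The list median was 0.59, 0.28 and 0.64 in the low EC50 lines, against 0.39, 0.36, 0.26, 0.26 and 0.01 in the high EC50 lines. The count of 6 became 3 with equal summed signal or without HCC1143. It became 2 without HCC70, without MDA-MB-157, without HCC38, with limma without trend or in the claudin-low lines alone. It became 1 in the MDA-MB lines alone and 18 without MDA-MB-231. That last omission also took the count of genes with a higher change over all genes from 509 to 2309.

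HK2, a hexokinase that starts glycolysis (GRCh37 chr2:75061254-75120486, plus strand), had changes without overlap. HK2 had signals of 2502, 2747 and 4637 in TLT and 1426, 1896 and 2589 in DMSO in the low EC50 lines. Among the high EC50 lines they were 1296, 612, 584, 1852 and 411 in TLT and 1079, 453, 585, 1754 and 548 in DMSO. Its DMSO levels also ran high in the low EC50 lines, overlapping only with MDA-MB-436. HK2 had changes of 0.81, 0.53 and 0.84 in the low EC50 lines, against 0.26, 0.44, -0.0038, 0.08 and -0.41 in the high EC50 lines, a difference of 0.66 (SE 0.19, unadjusted p = 0.00367, limma), and rose in the low EC50 lines by 0.73 (adjusted p = 0.0131, limma). HK1, the other broadly expressed hexokinase, had changes of 0.74, 0.27 and 0.76 in the low EC50 lines, against -0.24 to 0.25 in the high EC50 lines , and rose in the low EC50 lines by 0.59 (adjusted p = 0.0144, limma). BNIP3, a mitochondrial mitophagy protein, rose in the low EC50 lines by 0.84 (adjusted p = 0.00827, limma) and in the high EC50 lines by 0.40 (adjusted p = 0.038, limma). VEGFA, the angiogenic factor, which is also on the stress response list, was the 1 member with a lower change. It rose in the high EC50 lines by 0.55 (adjusted p = 0.00579, limma) and had changes of 0.16, 0.09 and 0.09 in the low EC50 lines.

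Interferon-stimulated genes were split. Of 22, 5 had a higher and 1 a lower change at an unadjusted p under 0.05 (22.7% and 4.55%, against 3.5% and 6.13% of all genes), and the 5 became 1 without MDA-MB-157, without HCC70, without HCC38, in the MDA-MB lines alone or in the claudin-low lines alone, 2 with equal summed signal, without trend, without HCC1143 or without MDA-MB-436, 3 with TMM scaling, a pseudocount of 0.1, a mean of at least 100, the line series term or without HCC1395 and 8 without MDA-MB-231. Over all genes the count with a higher change also rose without MDA-MB-231, from 509 to 2309. Besides MX1, the antiviral synthase OAS3 had changes of 0.81, -0.30 and 1.15 in the low EC50 lines, against -0.17 to 0.10 in the high EC50 lines, and OAS2 1.31, -0.08 and 1.497 in the low EC50 lines, against -0.0013 to 0.27 in the high EC50 lines. Here HCC70 and MDA-MB-157 were above the high EC50 lines and MDA-MB-231 below them. IRF1, a transcription factor of this response, fell in the low EC50 lines by 1.28 (adjusted p = 0.024, limma). IFIT2, IFIT3 and IFIT5, which bind viral RNA or its sensors, fell in both classes (adjusted p = 0.0156 to 0.0374 in the low and 0.00952 to 0.0495 in the high EC50 lines, limma), and IFIT1 fell in the high EC50 lines by 0.81 (adjusted p = 0.00592, limma), so members of the list moved in both directions.

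Of 25 genes of cholesterol synthesis and uptake 6 rose in the low EC50 lines (5.49% of all genes) and 16 in the high EC50 lines (6.75% of all genes), and none fell in either. A lower change at an unadjusted p under 0.05 was found for 1 (4%, against 6.13% of all genes), the mevalonate kinase gene MVK, with a difference of -0.51 (SE 0.22, unadjusted p = 0.0389, limma) and overlapping changes. HMGCS1, HMG-CoA synthase, had changes of 2.05, 1.28 and 0.73 in the low EC50 lines, against 1.93, 1.46, 1.33, 1.498 and 0.25 in the high EC50 lines. IDI1, an isomerase of the pathway, rose by 1.04 (adjusted p = 0.00653, limma) in the low and by 1.15 (adjusted p = 0.000488, limma) in the high EC50 lines. MDA-MB-157 and HCC38 responded least, with list medians of 0.14 and 0.06, and these lines belong to different classes. The list median difference was -0.14, against 0.07 over all genes.

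Other lists gave single genes. Of 16 drug and sterol transporters 3 had a higher change at an unadjusted p under 0.05 (18.8%, against 3.5% of all genes), ABCC1, ABCC10 and ABCC4. ABCC10, an efflux pump related to ABCC1, fell in the high EC50 lines by 0.84 (adjusted p = 0.00311, limma), with changes of -0.30, -0.54 and 0.31 in the low EC50 lines, against -0.96 to -0.76 in the high EC50 lines, and ABCC4 rose in the low EC50 lines by 0.89 (adjusted p = 0.0187, limma). CDKN2B, an inhibitor of CDK4 and CDK6, rose in the high EC50 lines by 1.22 (adjusted p = 0.00252, limma), with changes of 0.34, 0.34 and -0.18 in the low EC50 lines, against 0.79, 0.80, 1.51, 2.03 and 0.97 in the high EC50 lines. CCND3, cyclin D3, had a difference of 0.32 (changes of 0.30, 0.05 and 0.44 in the low EC50 lines, against -0.12 to -0.01 in the high EC50 lines). ELOVL5, a fatty acid elongase, and CRYAB, a small heat shock protein, had differences of 0.30 and 1.86, and the signal of CRYAB was under 10 in 5 of 8 lines. Of 19 cleavage, polyadenylation and termination factors 4 had a lower and 1 a higher change at an unadjusted p under 0.05 (21.1% and 5.26%, against 6.13% and 3.5% of all genes), led by CPSF6 at -0.45 and CPSF7 at -0.33. GNL3, a nucleolar GTPase, rose in the high EC50 lines by 0.36 (adjusted p = 0.0162, limma) and had changes of 0.01, -0.04 and 0.07 in the low EC50 lines. Of 21 BCL2 family and apoptosis genes 3 had a higher and 1 a lower change at an unadjusted p under 0.05 (14.3% and 4.76%, against 3.5% and 6.13% of all genes). Their median difference was 0.03, against 0.07 over all genes. MCL1, a BCL2 relative that blocks apoptosis, rose in the high EC50 lines by 0.58 (adjusted p = 0.0159, limma) and had changes of -0.26, 0.59 and -0.46 in the low EC50 lines. TXNIP, an inhibitor of thioredoxin and glucose uptake, fell in both classes, by 2.45 in the low and by 1.71 in the high EC50 lines (adjusted p = 0.0228 and 0.0272, limma). ID1, a target of BMP signaling that inhibits differentiation factors, fell in the low EC50 lines by 2.15 (adjusted p = 0.0245, limma), with changes of -3.51, -0.44 and -2.50 in the low EC50 lines, against -0.65, -0.11, -1.57, -0.35 and -0.02 in the high EC50 lines. Of 20 ribosomal protein genes and 22 proteasome subunits, 0 had an unadjusted p under 0.05 for the difference (0 after adjustment, limma), with list medians of 0.11 each, against 0.07 over all genes.

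Protein arrays, and Western blots on some of the lines, had followed kinases of the AMPK, MAPK, AKT and checkpoint pathways and their substrates, and the RNA of those proteins was examined here. Of 15 such genes, 2 had a higher change in the low EC50 lines at an unadjusted p under 0.05 (13.3%, against 3.5% of all genes), PRKAA1 and RPTOR, and 0 a lower one. The difference ran from -0.43 for CDC25C, the phosphatase that activates CDK1, to 0.49 for RPTOR, a subunit of mTORC1. Over the alternatives RPTOR ran from 0.0408 to 0.713, with a call without MDA-MB-231 (adjusted p = 0.035, limma), and PRKAA1 from 0.0878 to 0.936 with none. The AMPK catalytic subunit gene PRKAA1 had changes of 0.60, -0.10 and 0.23 in the low EC50 lines, against 0.13, -0.04, -0.39, -0.18 and -0.58 in the high EC50 lines, a difference of 0.45 (SE 0.19, unadjusted p = 0.0303, limma). PRKAB1, a beta subunit of AMPK, had changes of -0.47, -0.17 and -0.87 in the low EC50 lines, against -0.04 to 0.16 in the high EC50 lines, a difference of -0.53 (SE 0.20, unadjusted p = 0.0196, limma). CHEK1, which encodes CHK1, had changes of -0.07, -0.15 and -0.26 in the low EC50 lines, against -0.04, -0.28, -0.08, 0.02 and 0.18 in the high EC50 lines, a difference of -0.12 (SE 0.16, unadjusted p = 0.447, limma), and MAPK14, which encodes p38 alpha, -0.29, -0.0023 and -0.77 in the low EC50 lines, against -0.20, -0.12, -0.06, -0.64 and 0.20 in the high EC50 lines, a difference of -0.19 (SE 0.20, unadjusted p = 0.364, limma). CDC25C fell in the low EC50 lines by 0.69 (adjusted p = 0.0342, limma), RPTOR fell in the high EC50 lines by 0.44 and STAT3 rose there by 0.36 (adjusted p = 0.0354 and 0.0142, limma), and the other 12 passed in neither class. PDK1 was matched by its symbol, but the kinase called PDK1 that activates AKT is encoded by PDPK1, which was looked up afterwards and had a difference of -0.37 (SE 0.16, unadjusted p = 0.0365, limma). These are RNA levels, and phosphorylation of the proteins was not analysed here.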

How the data were processed

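RNA was measured in 16 libraries of 8 cell lines. Treatment groups came from the labels and EC50 classes from the viability assay. The authors aligned 50-cycle single reads with MapSplice, quantified genes of hg19 with RSEM and scaled each library to its upper quartile, and the deposited values are therefore a normalized signal and not counts. Rows lacking a gene name (29 of 20531, 0.0398% of all signal) were dropped, and 26 names that a spreadsheet had changed to dates were kept unchanged. The steps between low values gave each library's depth, but only 83.1% to 85.1% of these values were whole within 0.01 reads, and no count test was run.

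The 14544 genes whose mean signal was 10 or more were fitted on log2(value + 1) by limma 3.58.1 (R 4.3.3, trended and robust variance), using terms for cell line, treatment, and treatment by EC50 class. P-values were adjusted by the Benjamini-Hochberg method, with a threshold of 0.05. Changes of weakly expressed genes are understated by the pseudocount. Both libraries of each line are paired by the labels, and their deviations had correlations of 0.9 to 0.954. Measures with 1 value per line were compared by exact permutation (Python 3.11.15, scipy 1.17.1). The fit was tested on simulated data with independent normal noise in each value. Real libraries need not have such noise, so the simulation does not show how the fit behaves here.

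Named genes were the 12 of smallest p in each direction whose changes had no overlap between the classes and whose mean was at least 100, since none was called, up to 2 such members of each list, and the genes of the measured proteins. A gene that this rule selects is not reported here. Other list members are named as called in a class or as having an unadjusted p under 0.05, a choice made after their values were seen. Members and lists were chosen with earlier results of these data known. RefSeq supplied the promoters (GRCh38.p14) and GENCODE the GRCh37 positions, which covered 673 of 676 genes. Alternatives were other scalings, pseudocounts, filters, thresholds and terms, no block, subsets of lines and each line left out. The joint omission of HCC70 and MDA-MB-157 and the motifs TGATGNAA and TTTGAA were added after seeing the data. The authors' deposited fold changes per line were not used.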

Additional observations from a re-analysis of the deposited data

Results flagged for a closer look

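Among the 5 high EC50 lines, 1 line lay far from the others for 3 of 59 values examined, and chance flags about 1 in 20. The change of PRKAA2, the second AMPK catalytic subunit gene, was -2.6 in HCC1395, against -0.204 to 0.19 in the other 4. The change of DDIT4 was -0.236 in MDA-MB-436, against 0.317 to 0.437 in the other 4, and the value of MDA-MB-436 lay above those of the 3 low EC50 lines too. The change of ELOVL5 was -0.243 in HCC38, against 0.0405 to 0.0962 in the other 4.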

How the results depend on the processing

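With adjusted p under 0.05, 0 genes were called for the difference by limma with the settings of the report (509 higher and 892 lower with p unadjusted), and 0 under TMM scaling, equal summed signal, a pseudocount of 0.1, no filter, a mean of at least 100, no trend, the EC50 rank, the subtype term, the line series term, the MDA-MB lines alone and the claudin-low lines alone. With a pseudocount of 10 or a threshold of 0.10 it was 1 gene (LOC144438), with both HCC70 and MDA-MB-157 left out 2, and in the HCC lines alone 662. Leaving out 1 line gave 0 to 1205, the highest without MDA-MB-231. In the low EC50 lines 1719 genes were called, against 321 without trend, 8 in the MDA-MB lines alone, 33 in the claudin-low lines alone, 0 with both HCC70 and MDA-MB-157 left out, 3321 at a threshold of 0.10, and 14 (without HCC70) to 4262 (without MDA-MB-231) when a line was left out. In the high EC50 lines 1738 genes were called, against 987 without trend, 134 in the MDA-MB lines alone, 825 in the HCC lines alone, 65 in the claudin-low lines alone, 2863 with both lines left out, 2822 at a threshold of 0.10, and 664 (without MDA-MB-436) to 2730 (without MDA-MB-231) when a line was left out. Without the replicate block, which pairs both libraries of a line, 0 genes were called for the difference (0 higher and 13 lower with p unadjusted), 0 in the low and 0 in the high EC50 lines. Of the list members with a lower or higher change at an unadjusted p under 0.05 (11 of the stress response, 10 of G2 and mitosis, 7 of ERK feedback, 138 ZNF, 5 of DNA replication, 6 of HIF1 and 5 of interferon), 0 to 2 per list had one without the block and 0 to 8 with both lines left out. Lone lines left in a class are assumed to vary like the others.

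Over 23 alternatives none of the 552 differences of the 24 leading genes reversed and 35, in 21 genes, were called. The leading genes were chosen without overlap between the classes, so leaving out lines could not reverse them. The absence of reversals there is no test. Among the 15 genes of measured proteins, which were not chosen in this way, 26 of 345 differences reversed, all of them not called. In the MDA-MB lines alone these were PRKAA2 at -0.49, MAPK14 at 0.036, ACACA at -0.10, MAPKAPK2 at -0.021, PTK2 at -0.078 and PDK1 at -0.015. In the claudin-low lines alone they were PRKAA2 at -0.39, MAPKAPK2 at -0.051 and FASN at 0.22. With both HCC70 and MDA-MB-157 left out they were MAPK14 at 0.16, ACACA at -0.26, MAPKAPK2 at -0.14, AKT1 at -0.23, PTK2 at -0.053 and PDK1 at -0.080. Equal summed signal reversed MAPKAPK2 (-0.063) and AKT1 (-0.00425), the HCC lines alone STAT3 (0.13) and the EC50 rank FASN (0.015). Leaving out 1 line gave ranges of -0.25 to 0.66 for PRKAA2, -0.37 to 0.017 for MAPK14, -0.043 to 0.13 for MAPKAPK2, -0.020 to 0.26 for AKT1 and -0.26 to 0.057 for FASN. The cause of these shifts was not tested. DESeq2 was not run, since no counts were used here. Depth limits the genes of low signal, and 3 lines against 5 cannot give an exact p below 0.0357.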
